A study of Mus musculus with 8 samples.

Results

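The flavin-containing monooxygenases Fmo1, Fmo2, Fmo4 and Fmo5 were described in the liver of obese NZO and lean B6 mice. These 4 genes were taken by name from the 34779 genes named on the array, and they were measured by 7 probes of 60 bases each. Liver RNA came from 4 male NZO/HiBomDife and 4 male C57BL/6 mice. All 8 mice were 6 weeks old and received a diet with 45% fat, and the RNA of each mouse was hybridised in 1 colour to an Agilent array of its own. Both strains are inbred lines that differ across the genome, so that strain and body weight cannot be told apart in this comparison. Mice are named by strain and by the number in their label, for example NZO 003.

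Flavin-containing monooxygenases are enzymes of the endoplasmic reticulum that bind FAD. They take electrons from NADPH and use molecular oxygen to add an oxygen atom to soft nucleophiles, mostly nitrogen and sulfur atoms of drugs, food components and small metabolites. Fmo1 accepts many tertiary amines and also converts hypotaurine to taurine, Fmo2 is best known from the lung, and Fmo4 is the member whose substrates are least well known. Fmo5 is abundant in liver, oxygenates few of the classic substrates and carries out Baeyer-Villiger reactions, in which an oxygen atom is inserted next to a carbonyl group.

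Fmo1, Fmo2 and Fmo4 lie beside each other on chromosome 1, and Fmo5 lies alone on chromosome 3. In the mouse gene table for GRCm38.p6, Fmo4 covers chr1:162793188-162816072, Fmo1 covers chr1:162829561-162866610, Fmo2 covers chr1:162874317-162898758 and Fmo5 covers chr3:97609938-97655287. Fmo4 and Fmo2 have 1 probe each, Fmo1 has 2 and Fmo5 has 3. The scanner output places the probes on the older build mm9. The Fmo4 probe A_52_P471282 lies at chr1:164724109-164724168 on the minus strand, and the Fmo1 probes lie at chr1:164760037-164760096 (A_52_P508991) and chr1:164780212-164780271 (A_55_P2153783), also on the minus strand. The first 30 bases of these 3 probes are shown, because the comparison of the strains turns on Fmo4 and because the 2 Fmo1 probes read separate stretches of 1 transcript, from base 1921 and from base 721 of NM_010231. They are written 5′ to 3′ as the scanner output lists them, with no base marked.
Fmo4 A_52_P471282: ttcttgaattggtacaaggtaagctaccga
Fmo1 A_52_P508991: gatctaactggcttttcaaatgtatggagt
Fmo1 A_55_P2153783: aactcagccatctttgatgctgtcatggtc

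The 3 Fmo5 probes start at bases 1888 (A_55_P2026340), 2484 (A_55_P1959595) and 5207 (A_55_P2168722) of NM_001161765. The Fmo2 probe A_51_P301998 starts at base 1627 of NM_018881, and the Fmo4 probe starts at base 1632 of NM_144878. Which exons or untranslated regions hold them was not analysed here.

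Each level is the log2 processed signal of a probe minus the 75th percentile of its array. A level of 0 is therefore the signal that 75% of the probes on an array do not exceed, and levels of different probes are not read as amounts of different transcripts. The summed levels given for cell markers are weighted towards the brightest probe of each list, which is named beside them. The 75th percentile was 119 to 142 signal units on the NZO arrays and 136 to 159 on the B6 arrays. The share of spots well above background was 50.4% to 55.0% in NZO and 53.1% to 60.1% in B6, with 0 saturated spots. Every one of the 7 Fmo probes exceeded background clearly on each of the 8 arrays. The Fmo6 and Fmo9 probes, which stand for the other members of the family named here, were above background on 0 of the 8 arrays, and no difference is given for them.

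The liver label was checked with marker genes. All 5 hepatocyte markers (Alb, Ttr, Apoa1, Cps1 and Tat) were above background on all 8 arrays, and 0 of them were called (median log2 fold change 0.00); their summed level was 11.89 to 11.94 in NZO and 11.55 to 11.88 in B6 (brightest probe, Alb), without overlap. The adipocyte genes Adipoq, Plin1 and Lep, the pancreatic genes Cela3b, Pnlip, Cpa1 and Prss2 and the lung genes Sftpc and Sftpb were above background on 0 arrays. The other members of these 3 lists (Cidec, Fabp4 and Car3, Cela1 and Ctrb1, and Scgb1a1) were above background on all 8 arrays. Skeletal muscle markers were most marked in NZO 007 and B6 010. Their summed level was 4.15 in NZO 007 against -2.88 to -1.72 in the other NZO mice, and 2.51 in B6 010 against -1.34 to 0.49 in the other B6 mice, with Myh4 as the brightest probe and 0 of the 3 tested genes called. Acta1 and Myh4 were above background on 3 of 4 NZO and all 4 B6 arrays, so that leaving out NZO 007 and B6 010 lowers the muscle signal without removing it, and in the remaining mice the summed level was still lower in NZO. Results on the Fmo genes are also given without NZO 007 and B6 010, a choice made after the data were seen. B6 010 was also the B6 mouse nearest to the NZO mice for Fmo4.

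Of the 4 red blood cell markers, 2 (Hba-a1, log2 fold change 1.00, and Alas2, 0.90) were called higher in NZO by the thresholds used for the Fmo genes, while Hbb-b1 (0.81, limma adjusted p = 0.0704) and Slc4a1 (0.61, adjusted p = 0.322) were not. The summed level of the 4 was 8.19 to 8.88 in NZO and 7.28 to 7.70 in B6 (brightest probe, Hba-a1). Summed levels without overlap between the strains were also found for adipocyte genes (9.14 to 9.33 in NZO, 8.68 to 8.91 in B6, brightest probe Car3, 0 of 3 tested called), endothelial genes (5.59 to 6.01 in NZO, 5.35 to 5.45 in B6, brightest probe Stab2, 0 of 5 called) and stellate cell and fibroblast genes (5.41 to 5.73 in NZO, 5.85 to 6.05 in B6, brightest probe Dcn, 0 of 5 called). The adipocyte sum followed Car3 (log2 fold change 0.47), while Cidec had 0.42 and Fabp4 -0.30. Adipoq, Plin1 and Lep were above background on 0 arrays, so the sum is read as that of Car3 and not as adipocyte content. In the endothelial list, the brightest probe, of Stab2, had a log2 fold change of 0.48. Kdr had 0.32 at its brighter probe and -0.21 at its other probe. The other Stab2 probes had -0.44 and -0.93, Pecam1, Cdh5 and Tek had -0.22, -0.27 and -0.41, and the median of the list was -0.22. Sums for leukocytes (brightest probe Cd3e), exocrine pancreas (Ctrb1, 0 of 2 tested called) and lung (Scgb1a1, 0 of 1 tested called) overlapped. The leukocyte median was -0.42, with Cd3e at 0.33, Lyz2 at 0.41, Ptprc at -0.52 and Cd68 at -0.42 (adjusted p = 0.0445, short of the fold threshold). Of the 5 leukocyte markers, 1 was called, Itgax (-2.04), which was above background on 4 B6 but only 2 NZO arrays and so passed the filter through B6, where it was higher. The part of these cells in the Fmo values was not tested. In whole tissue, fewer cells of a type and less RNA per cell cannot be told apart.

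Differences are NZO minus B6 on the log2 scale. A probe was called when limma gave a Benjamini-Hochberg adjusted p of at most 0.05, over all 27639 probes past the filter on dim probes, and a log2 fold change of at least 0.7 in either direction. Across the array, 9.62% of the probes were called, 4.33% higher and 5.28% lower in NZO. Of the 7 Fmo probes, 1 was called higher and 0 lower, and the 1 called probe was that of Fmo4. The levels of NZO and B6 mice did not overlap for 2 of the 7 Fmo probes, where 22.0% of all tested probes showed no overlap. The Fmo probes thus separated the strains about as often as probes of the array in general.

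**Figure D1:**
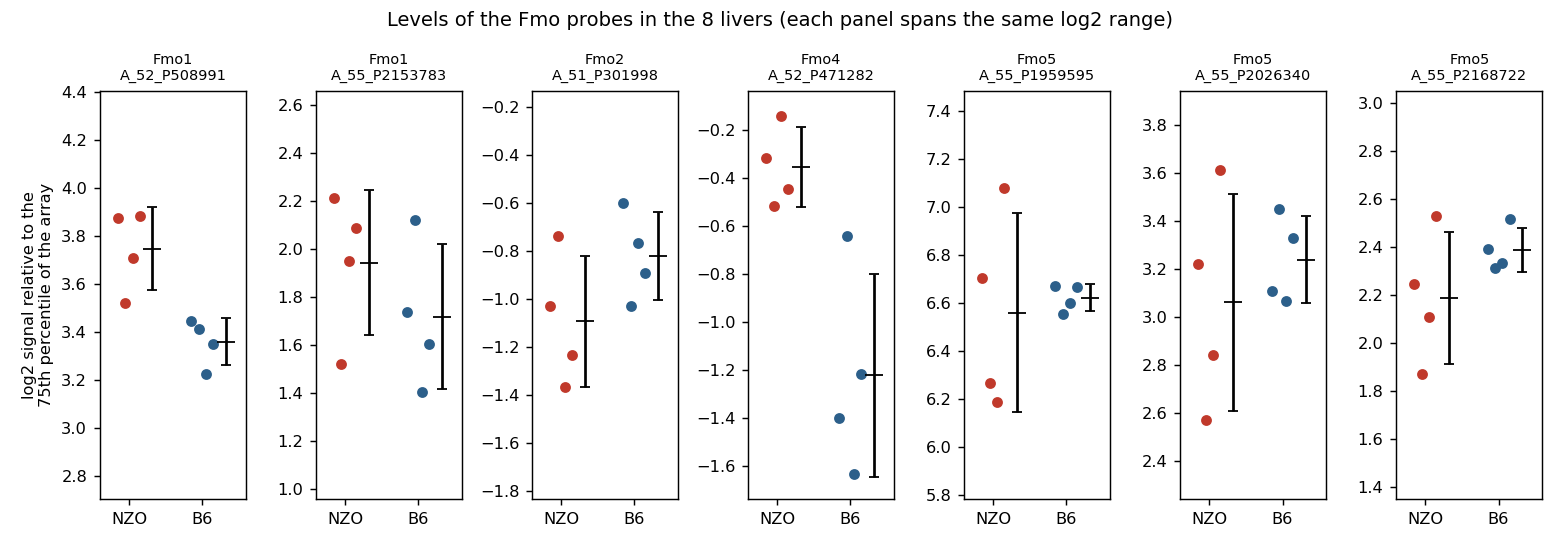
Levels of the 7 Fmo probes in each mouse (vertical axis, log2 signal relative to the 75th percentile of the array; red, NZO; blue, B6; black bars, mean and SD of 4 mice). All 4 NZO points lie above all 4 B6 points for the Fmo4 probe and for the Fmo1 probe A_52_P508991, and the strains overlap for the other 5 probes.

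Fmo4 was the family member with a called difference. Its levels were -0.32 in NZO 003, -0.52 in NZO 007, -0.14 in NZO 009 and -0.44 in NZO 011. In the B6 mice they were -1.40 in B6 009, -0.64 in B6 010, -1.63 in B6 011 and -1.22 in B6 015. Every NZO mouse was above every B6 mouse, and B6 010 was the B6 mouse closest to the NZO range. The NZO mice averaged -0.355 ± 0.165 (SD, n = 4) and the B6 mice -1.22 ± 0.42 (SD, n = 4), so the B6 mice spread more widely. The log2 fold change was 0.87 (SE 0.21, 95% confidence interval 0.39 to 1.35), which is 1.83-fold (1.31 to 2.54), with a limma adjusted p of 0.0265. Of the 22 alternatives with an adjusted p, the call did not hold in 14. Among them was the methods' own test with Benjamini-Hochberg adjustment added (adjusted p = 0.119). Normexp background correction gave a log2 fold change of 0.56 (limma adjusted p = 0.00939), short of the fold threshold only. The deposited table gave 0.47 (adjusted p = 0.0528), short of both thresholds. Others were no filter on dim probes (adjusted p = 0.0734) and the mouse number as a replicate block (adjusted p = 0.0728). The replicate block rests on the numbers 009 and 011, the only ones that occur in both strains. The methods state no Benjamini-Hochberg adjustment for expression. Without it, the Fmo4 probe passed the p and fold thresholds in their test. The two-sided exact permutation p over the 8 mice was 0.0286, the smallest that 4 against 4 mice can give. The processed signal of this probe was between 51.2 and 129 units, in each mouse below the 75th percentile of its own array.

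Because the strains did not overlap, leaving out single mice could not change the direction of the Fmo4 difference. Log2 fold changes were between 0.73 and 1.06, and the call was not always kept. Without B6 010 the log2 fold change was 1.06 (adjusted p = 0.00423, limma) and without NZO 007 it was 0.92 (adjusted p = 0.0406), both called. Without NZO 007 and B6 010 it was 1.12 (SE 0.15, adjusted p = 0.00744). These were the lowest of NZO and the highest of B6, so that leaving out either or both had to enlarge the difference. Without NZO 003, NZO 009, NZO 011, B6 009, B6 011 or B6 015 the adjusted p was 0.0646, 0.0668, 0.0542, 0.0771, 0.0628 and 0.0628, respectively, and the probe was no longer called.

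The 8 arrays belonged to 5 slides and to 2 scan days, and slide 1 held arrays of both strains (NZO 003, B6 010 and B6 015). With the slide as a fixed block, the Fmo4 log2 fold change was 0.61 (adjusted p = 0.341, limma), an estimate that rests on those 3 arrays. With the slide as a random block over all 8 arrays, it was 0.86 (adjusted p = 0.0279) and called. With the scan day as a block it was 0.76 (adjusted p = 0.0231). Within the first scan day (3 NZO and 2 B6 mice) it was 0.63 (adjusted p = 0.188), and within the second (1 NZO and 2 B6 mice) it was 1.00. The single NZO mouse of the second day, NZO 007, gives no spread within NZO, so no p is given there. That fit is counted among the 14 alternatives in which the call did not hold. Since the strains did not overlap, the fixed-block fits and those within a scan day had to give a positive difference. Of the fits with the slide or the scan day as a fixed block, the difference was called with the scan day.

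**Figure D2:**
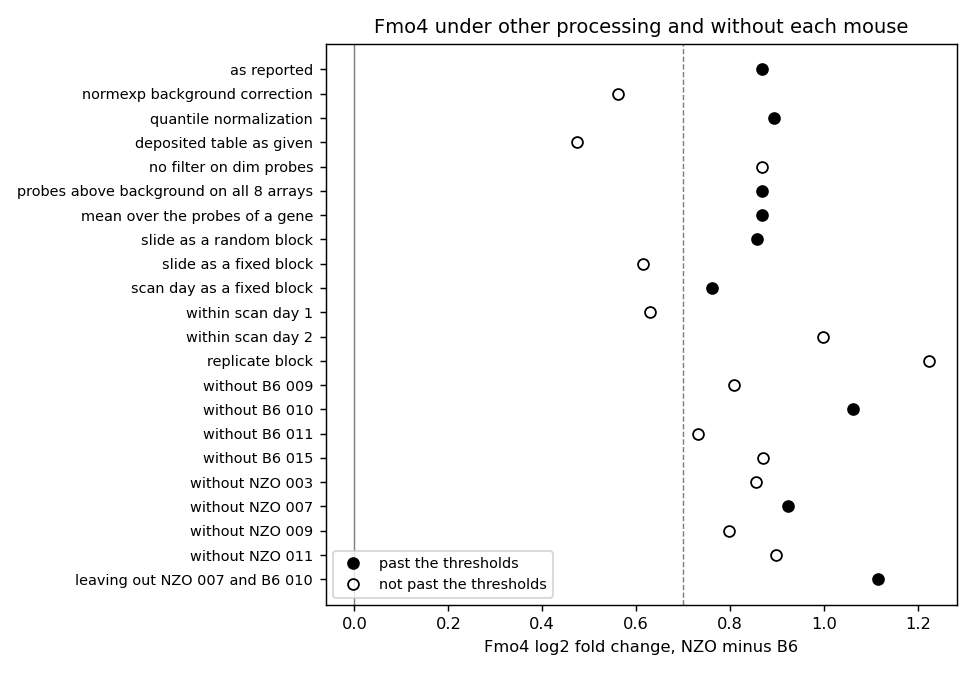
Fmo4 log2 fold change, NZO minus B6 (horizontal axis), as reported and under other processing, other blocks or with mice left out (rows; filled circles, past adjusted p and fold thresholds; open circles, not past both; dashed line, 0.7). Values run from 0.47 with the deposited table as given to 1.22 with the mouse number as a replicate block, which rests on the 2 numbers shared by the strains. Since the strains do not overlap, leaving out mice cannot bring a value below 0.

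For Fmo1, the probe further along the transcript (A_52_P508991) separated the strains by a smaller step. Levels were 3.88 in NZO 003, 3.52 in NZO 007, 3.71 in NZO 009 and 3.88 in NZO 011, and 3.44 in B6 009, 3.41 in B6 010, 3.22 in B6 011 and 3.35 in B6 015. The lowest NZO mouse, NZO 007, lay just above the highest B6 mouse, B6 009. Means were 3.75 ± 0.17 in NZO and 3.36 ± 0.10 in B6 (SD, n = 4 each). The log2 fold change was 0.39 (SE 0.11, 95% confidence interval 0.13 to 0.65) with a limma adjusted p of 0.0585, so the probe passed neither the adjusted p nor the fold threshold. Its unadjusted limma p was 0.00896 and its exact permutation p, two-sided, was 0.0286. Without NZO 007 the adjusted p was 0.0256 with a log2 fold change of 0.46, and without NZO 007 and B6 010 the adjusted p was 0.0508 with a log2 fold change of 0.48. For this probe the difference was 0.12 in the deposited table (adjusted p = 0.594) and 0.19 within the second scan day, which holds 1 NZO mouse.

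The other Fmo1 probe (A_55_P2153783), which lies further towards the start of the transcript, gave overlapping levels. They were 2.21 in NZO 003, 1.52 in NZO 007, 1.95 in NZO 009 and 2.09 in NZO 011, against 1.74 in B6 009, 2.12 in B6 010, 1.40 in B6 011 and 1.61 in B6 015. NZO 007 was low and B6 010 was high. The log2 fold change was 0.23 (SE 0.20, 95% confidence interval -0.23 to 0.68, limma adjusted p = 0.507). Without these 2 arrays, the lowest of NZO and the highest of B6, it was 0.50 (SE 0.14, adjusted p = 0.0728), while it was 0.12 without B6 011 and 0.13 without NZO 003. Without NZO 007 alone and without B6 010 alone it was 0.37 and 0.36, and it was 0.12 with the scan day as a block. The difference of this probe changed sign with the deposited table (-0.030) and within the second scan day, which holds 1 NZO mouse (-0.052). As reported, both Fmo1 probes thus had a positive difference that was not called, and the interval of each holds the estimate of the other.

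The Fmo2 probe was lower on average in NZO, but the strains overlapped. Levels were -1.03 in NZO 003, -0.74 in NZO 007, -1.37 in NZO 009 and -1.23 in NZO 011, and -0.60 in B6 009, -1.03 in B6 010, -0.77 in B6 011 and -0.89 in B6 015. Here NZO 007 was the highest NZO mouse and B6 010 the lowest B6 mouse. The log2 fold change was -0.27 (SE 0.16, 95% confidence interval -0.64 to 0.10, limma adjusted p = 0.317). Its size depended on the mice and blocks. Without NZO 007 and B6 010, the highest of NZO and the lowest of B6, it was -0.46 (SE 0.14, adjusted p = 0.0978), while it was -0.18 without NZO 009, -0.18 with the scan day as a block, -0.071 with the slide as a fixed block and -0.056 within the second scan day. It was -0.13 with normexp background correction. With the mouse number as a replicate block, which rests on the shared numbers 009 and 011, it was -0.62 (adjusted p = 0.180). Of the 3 lung markers, Sftpc and Sftpb were at background, as given above, and Scgb1a1 was above background on all 8 arrays with a log2 fold change of 0.18 (SE 0.24, adjusted p = 0.670).

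**Figure D3:**
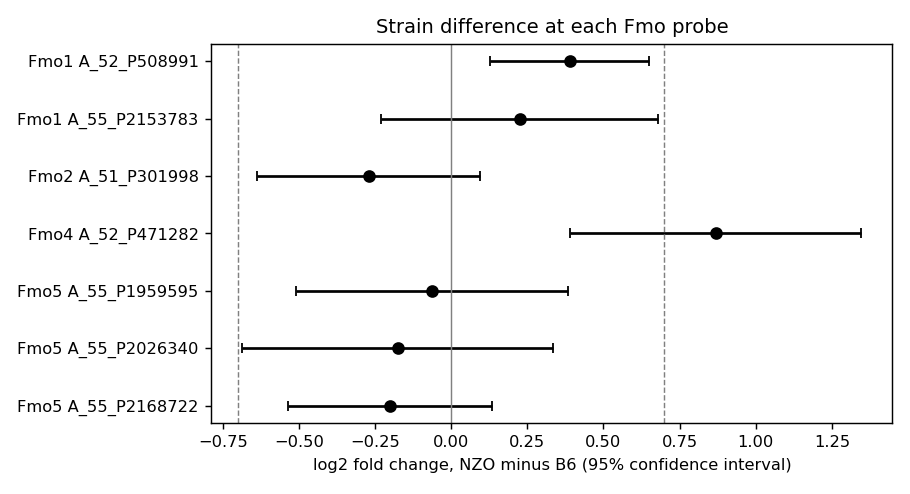
Strain difference at each Fmo probe (horizontal axis, log2 fold change, NZO minus B6; points, limma estimates; bars, 95% confidence intervals; dashed lines, 0.7 in either direction). The Fmo4 interval runs from 0.39 to 1.35, the interval of the Fmo1 probe A_52_P508991 from 0.13 to 0.65, and the other 5 intervals include 0.

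Fmo5 did not separate the strains at any of its 3 probes. For A_55_P1959595, levels were 6.71 in NZO 003, 6.27 in NZO 007, 6.19 in NZO 009 and 7.08 in NZO 011, and 6.67, 6.56, 6.60 and 6.67 in B6 009, B6 010, B6 011 and B6 015. The B6 mice lay close together inside the range of the NZO mice. The log2 fold change was -0.06 (SE 0.19, 95% confidence interval -0.51 to 0.38, limma adjusted p = 0.867). For A_55_P2026340 it was -0.18 (SE 0.22, interval -0.69 to 0.33, adjusted p = 0.652), and for A_55_P2168722 it was -0.20 (SE 0.15, interval -0.53 to 0.13, adjusted p = 0.416). All 3 intervals leave room for a modest difference in either direction, and those of A_55_P1959595, A_55_P2026340 and A_55_P2168722 lie within 0.7 of 0. Without NZO 007 the log2 fold changes were 0.03, -0.013 and -0.095 in that order, and without NZO 007 and B6 010 they were 0.01, 0.06 and -0.12. Without NZO 011 they were -0.24, -0.36 and -0.31, and within the second scan day, which holds 1 NZO mouse, -0.37, -0.52 and -0.49. In the deposited table they were -0.25, -0.39 and -0.44 (adjusted p = 0.0595 for the last), and quantile normalization gave -0.19 for A_55_P1959595. None of these was called.

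The 3 Fmo5 probes ranked the NZO mice alike at the top. NZO 011 had the highest level on each of them (3.61 for A_55_P2026340 and 2.53 for A_55_P2168722) and NZO 003 came next (3.22 and 2.24). NZO 007 was the lowest NZO mouse on these 2 probes (2.57 and 1.87), and NZO 009 was lowest on A_55_P1959595. The B6 mice ranged from 3.07 to 3.45 on A_55_P2026340 and from 2.31 to 2.52 on A_55_P2168722. The SD over 4 mice was 0.414 in NZO and 0.0555 in B6 for A_55_P1959595, 0.453 and 0.181 for A_55_P2026340, and 0.274 and 0.0926 for A_55_P2168722. Over all tested probes the median SD was 0.233 in NZO and 0.189 in B6, and 64.1% of the probes had the larger SD in NZO. The 3 probes read 1 transcript in the same RNA, so they are not separate evidence on the mice, and the difference in spread was not tested.

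**Figure D4:**
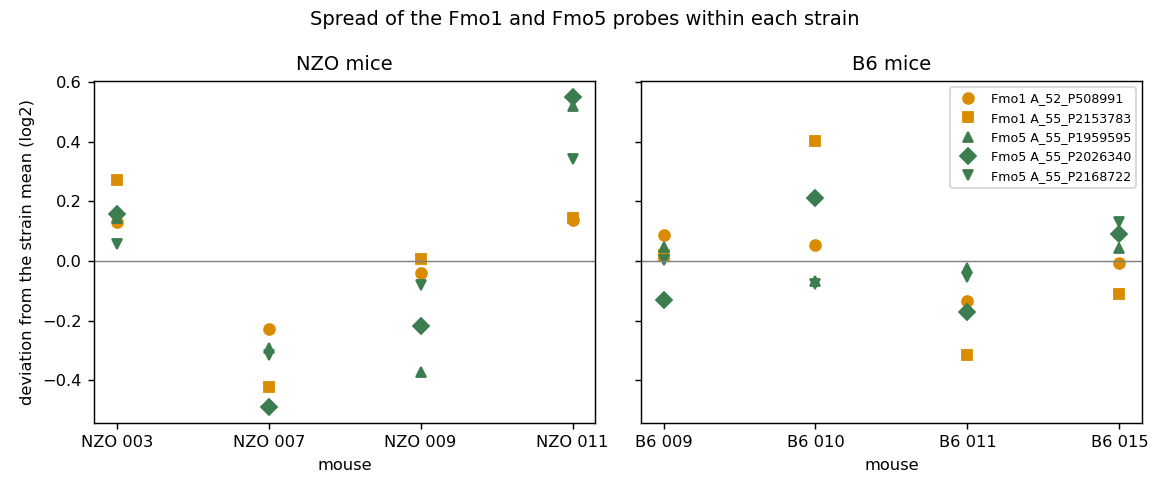
Deviation of each mouse from its strain mean (vertical axis, log2) for the 2 Fmo1 probes (orange) and the 3 Fmo5 probes (green), with NZO mice on the left and B6 mice on the right. The Fmo5 probes are all above the NZO mean in NZO 003 and NZO 011 and all below it in NZO 007 and NZO 009, and NZO 007 is below the NZO mean on all 5 probes.

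Genes around the Fmo reaction were examined in 5 lists of 32 genes, each gene by its probe with the highest mean. Of these, 30 passed the filter on dim probes, and 0 were called higher and 0 lower, where 4.42% of all 20136 genes were called higher and 5.01% lower. At an unadjusted limma p of 0.05, 8 of the 30 passed when the fold was disregarded, beside 27.9% of all genes, and 0 passed with the fold threshold, beside 11.9%. The unadjusted test named in the methods passed 7 with the fold disregarded, beside 25.4% of all genes. The median log2 fold change of the 30 genes was 0.10, beside 0.03 for all genes. By list, the median was 0.14 for NADPH supply (7 tested), -0.03 for FAD synthesis (3 tested), 0.04 for taurine synthesis and use (6 tested), 0.11 for reductases of oxygenated nitrogen and sulfur (9 tested) and 0.03 for transcription factors studied at Fmo promoters (5 tested).

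The following genes of the lists were chosen after their values were seen. Rfk, the kinase that turns riboflavin into FMN on the way to FAD, had levels of 2.50, 2.10, 2.29 and 2.31 in NZO 003, NZO 007, NZO 009 and NZO 011 and of 1.53, 1.67, 1.72 and 1.75 in B6 009, B6 010, B6 011 and B6 015. The strains did not overlap, and the log2 fold change of 0.63 (SE 0.11, limma adjusted p = 0.00664) fell short of the fold threshold. It was 0.70 without NZO 007, the lowest NZO mouse, and B6 010, and then passed both thresholds (adjusted p = 0.0171). Flad1, which makes FAD from FMN, had a log2 fold change of -0.03 (SE 0.09) at its brightest probe and -0.37 at A_55_P2107025 (adjusted p = 0.254), and the riboflavin transporter Slc52a2 one of -0.42 (SE 0.13, adjusted p = 0.0729). Cyb5r3, a reductase that passes electrons from NADH to cytochrome b5, had a log2 fold change of 0.55 (SE 0.11, adjusted p = 0.0105) without overlap, also short of the fold threshold. Its partners in the reduction of N-oxygenated compounds had log2 fold changes of 0.22 (Mtarc1, 0.40 at its other probe), 0.11 (Mtarc2) and -0.16 (Cyb5b), and the reductase Msrb2, which repairs oxidised methionine, one of 0.36 (adjusted p = 0.0535).

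Among the enzymes that supply NADPH, malic enzyme Me1 depended on the probe. Its brightest probe, A_55_P2016842, had levels of 4.78, 3.73, 3.96 and 4.73 in NZO 003, NZO 007, NZO 009 and NZO 011, against 3.42 to 3.76 in B6. NZO 003 and NZO 011 were high, and NZO 007 lay within the B6 range. The log2 fold change was 0.65 (SE 0.25, limma adjusted p = 0.132), while those of its other probes were 1.01 (A_55_P2009952, adjusted p = 0.0159, called) and 0.42 (A_55_P2171413, adjusted p = 0.392). Without NZO 007, the lowest NZO mouse, the brightest probe was called with 0.84 (adjusted p = 0.0433). The pentose phosphate enzymes G6pdx and Pgd had log2 fold changes of -0.12 (SE 0.16) and 0.14 (SE 0.14), and H6pd, which makes NADPH inside the endoplasmic reticulum, one of -0.02 (SE 0.13). Of the genes that make taurine, Cdo1 had a log2 fold change of -0.27 (SE 0.09, adjusted p = 0.0982) and Csad one of 0.41 (SE 0.17, adjusted p = 0.166). The liver factor Hnf4a had a log2 fold change of 0.03 (SE 0.12), the bile acid receptor gene Nr1h4 one of 0.30 (SE 0.13, adjusted p = 0.181), and the receptor genes Ahr and Nr1i2 ones of -0.05 (-0.33 at the other Ahr probe) and -0.01.

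**Figure D5:**
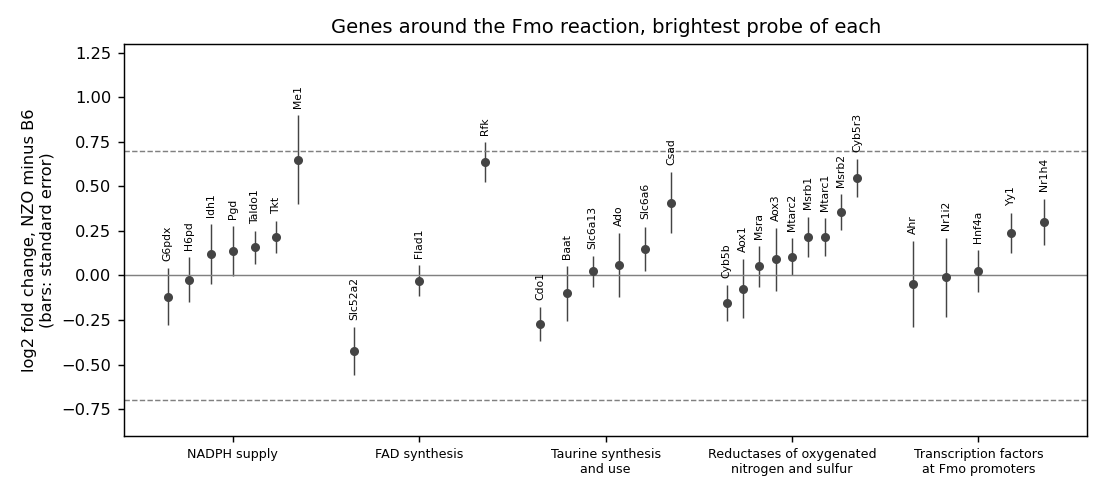
Log2 fold change, NZO minus B6 (vertical axis; bars, standard error; dashed lines, 0.7 in either direction) of the 30 tested genes of the 5 lists, each by its brightest probe. All 30 lie between the dashed lines, and Me1 (0.65), Rfk (0.63) and Cyb5r3 (0.55) have the largest values.

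For each member, up to 3 genes with the most similar course over the 8 mice were sought among 13262 genes above background on all arrays. Likeness was the root mean square difference between log2 levels centred on their mean over the 8 mice, with the brightest probe of each gene. For Fmo4, whose own root mean square deviation was 0.515, the closest were the retinol dehydrogenase gene Rdh11 (difference 0.122) and the gene of the isoprenoid enzyme farnesyl diphosphate synthase, Fdps (0.124). Their log2 fold changes were 0.85 and 0.96, beside 0.87 for Fmo4, a nearness that follows from the choice by likeness over the same mice. For Fmo1 (own deviation 0.229), they were Pstpip2 (0.0578), adenosine kinase, Adk (0.0579), and glycine decarboxylase, Gldc (0.0639). For Fmo5 (own deviation 0.258), they were Samd1 (0.0915), Clstn3 (0.107) and Tnfsf10 (0.111), and for Fmo2 (own deviation 0.242) they were C2cd3 (0.0848), Snora74a (0.0849) and 4921524J17Rik (0.0900). These values are descriptions over 8 mice, chosen as the smallest of many.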

How the data were processed

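The authors deposited the scanner output of 8 arrays and a table of the same arrays. Per the file headers, the intensity of each spot came from Feature Extraction 11.0.1.1 (version 9.1 in the submitters' processing notes), whose processed signal has had background and spatial trends removed on each array but was not scaled across arrays. Values of the deposited table equalled the raw median intensity at 59305 of 59305 spots of each array (tolerance 0.01) and served only as an alternative.

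Controls and 96 to 137 outlier spots on each array were dropped, log2 processed signals were reduced by the 75th percentile of each array, and spots of a probe were averaged. A probe was kept if it exceeded background clearly in all 4 mice of either strain (27639 of 55681). Groups came from the sample labels. In R 4.3.3, limma 3.58.1 compared NZO with B6 over all kept probes without a block, and was tested on simulated data. The thresholds were those of the methods (0.05 for p, 0.7 for the absolute log2 fold change), with p Benjamini-Hochberg adjusted. Tables and plots were made in Python 3.11.15 (pandas 2.3.3, matplotlib 3.10.9).

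Probes were named by accession (27656), symbol (3401) or synonym (321) from a RefSeq gene table, and 24303 kept the name in the files. Text names all probes of the 4 genes, other genes named Fmo, called genes of the lists, the 3 most similar genes of each member and, where they have a probe, the 3 nearest genes on either side of each locus. By that pattern the unrelated gene Fmod was also taken, and the values of 1 further gene of the family, 1 transcription factor of the lists (left out of their counts) and 1 of the genes similar to Fmo4 are not reported here. Members and lists were chosen with earlier results of these data known. Alternatives were normexp background correction (offset 50), quantile normalization, the deposited table, other filters on dim probes, the mean over probes, slide, scan day or mouse number as a block, the methods' test with Welch correction, and leaving out each mouse; leaving out NZO 007 and B6 010 together was added after the data were seen. The number of arrays limits the precision. The match of the probes to the NZO genome was not tested.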

Additional observations from a re-analysis of the deposited data

Results flagged for a closer look

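None of the 7 Fmo probes had a mouse set apart from the other mice of its strain by Dixon's test. Of 140 strain groups of 4 mice checked over the Fmo probes, the lists and the markers, 12 had such a mouse, and chance gives about 1 in 20. Among the genes around the Fmo reaction, these were G6pdx in NZO 011 (level 0.059, against 0.65 to 0.71 in the other NZO mice), Ado in NZO 007 (-0.54, against 0.05 to 0.12), Mtarc1 in B6 011 (8.24, against 8.28 to 8.29) and Msrb2 in B6 015 (2.97, against 3.07 to 3.08). Muscle transcripts set NZO 007 apart, with Acta1 at 2.81 (the other NZO mice at -4.13 to -2.95) and Tnnt3 at 1.27 (-6.41 to -5.22), and the macrophage gene Cd68 was at 1.79 in the same mouse (1.42 to 1.47). Among the other markers, Tat was at 5.77 in B6 011 (6.52 to 6.60), Ctrb1 at -0.23 in B6 011 (0.32 to 0.39), Cela1 at -2.55 in B6 015 (-1.71 to -1.55), Itgax at -1.18 in B6 015 (-1.94 to -1.92) and Reln at -0.35 in B6 010 (-0.999 to -0.931).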

How the results depend on the processing

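The Fmo4 difference was positive under all 22 alternatives with an adjusted p (0.47 to 1.22) and called under 8. Subsets of mice and fits within a block had to give a positive difference, since the strains did not overlap. Other filters, the mean over probes and the Welch correction left it at 0.87. Calls held, for example, with quantile normalization (0.89, adjusted p = 0.0308, limma), with probes above background on all 8 arrays (adjusted p = 0.0237) and with the slide as a random block (0.86, adjusted p = 0.0279). The unadjusted p of Fmo4 was 0.00297 in limma and 0.0196 with the Welch correction. The count of Fmo probes called higher was 0, in place of 1, with normexp (Fmo4 0.56, limma adjusted p = 0.00939), where only the fold threshold was missed. The count was likewise 0 with the deposited table (0.47) and no filter on dim probes (adjusted p = 0.0734). It was also 0 with the slide as a fixed block and within the first scan day. The same held with the methods' Welch correction (adjusted p = 0.119) and with the mouse number as a replicate block (1.22, adjusted p = 0.0728). Leaving out each mouse gave 0 to 1 Fmo probes and 0 to 2 genes of the lists called higher, and leaving out NZO 007 and B6 010 together gave 1 of each (the gene being Rfk). The replicate block rests on the 2 mouse numbers that the strains share. These name different mice, and the correlation of their deviations was -0.26 for 009 and 0.00 for 011. Over all probes, 1198 were called higher and 1460 lower. These counts moved by over 1.5 times with normexp (615 and 583), within the second scan day (277 and 554) and with the replicate block (72 and 134). Only the higher count moved so far with the table (575) and the slide as a fixed block (497), and only the lower count within the first scan day (800), with probes above background on all 8 arrays (963) and with the Welch correction (890). Without single mice they were 1055 to 1219 and 1221 to 1464. The median difference over all probes was -0.15 with the table, beside 0.01 as reported. Uncalled differences that changed sign were Fmo1 A_55_P2153783 with the table (-0.030) and within the second scan day (-0.052), Fmo5 A_55_P1959595 with the slide as a fixed block (0.093), within the first scan day (0.046), without NZO 007 (0.035), without NZO 009 (0.061; -0.24 to 0.061 over all single mice) and without NZO 007 and B6 010 (0.012), and Fmo5 A_55_P2026340 with the replicate block (0.14) and without NZO 007 and B6 010 (0.057). The cause of these changes was not tested. The median raw signal was 1.76 to 1.86 times the local background in NZO and 1.83 to 2.06 times in B6, which limits low levels.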

Other observations

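The 3 nearest genes on either side of each Fmo locus in the mouse gene table (GRCm38.p6) were also read, 18 in all, of which 11 were matched to no probe here. Prrc2c, at chr1:162671785-162740560 and the nearest gene outside the cluster on the side of Fmo4, had levels of -1.64, -1.43, -1.43 and -1.24 in NZO 003, NZO 007, NZO 009 and NZO 011 and of -0.91, -0.87, -0.93 and -0.87 in B6 009, B6 010, B6 011 and B6 015. All NZO mice were below all B6 mice, with a log2 fold change of -0.54 (SE 0.10, limma adjusted p = 0.00973) that was short of the fold threshold, whereas Fmo4 had a positive difference. On the other side of the cluster, Mroh9 was above background on 0 arrays, and Myoc, beyond Prrc2c, on 1 array of each strain. Beside Fmo9, Gm4847 was above background on 0 arrays. Chd1l and Prkab2, on either side of Fmo5, had log2 fold changes of 0.06 (SE 0.13) and 0.17 (SE 0.16), and Olfr1402, further out, one of 0.23 (SE 0.24), none of them called.

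Fmod, which shares the first letters of its symbol with the family but encodes the matrix protein fibromodulin, was above background on all 8 arrays and had a log2 fold change of -0.45 (SE 0.18, limma adjusted p = 0.146).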
